A study of Mus musculus with 19 samples.

Results

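The comparison was between neoplastic lung cells in which *Lkb1* had been targeted by Cas9 (sgLkb1, 5 libraries) and cells that carried control guides (sgInert, 7 libraries), chosen by the virus and label that the sample descriptions give. These were 12 of the 19 RNA-seq libraries of the series, and the other 7 (sgCebpa/b/d) entered the fit to share its estimate of the spread but are not described. All mice carried, among their alleles, *Rosa26* LSL-tdTomato and *H11* LSL-Cas9 on a C57BL/6J:129 mixed background, and the study's methods give an age of 6 to 12 weeks at initiation. A lentivirus that expressed Cre together with the guides was delivered into the trachea, either sgNeo1/sgNT/sgNeo2 (sgInert) or sgLkb1. In cells that received the virus, Cre started tumor growth and activated the fluorescent reporter and Cas9 at once. Tumors grew for 17 weeks and were microdissected. Dissociated cells were sorted after removal of cells stained for CD45, CD31, F4/80 or Ter119, a gate that takes out blood and endothelial cells but names no marker of fibroblasts. Whether the tdTomato reporter was used to sort these libraries is not given in the sources used here. All 5 sgLkb1 libraries came from females, and sgInert held 3 female and 4 male libraries.

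Library titles carried an animal number that starts with MT for 3 sgInert libraries (replicates 2, 5 and 7) and 3 sgLkb1 libraries (replicates 2, 3 and 4), which allowed the comparison to be repeated 3 against 3 within 1 title series. The other 4 sgInert titles start with ZR and the other 2 sgLkb1 titles (replicates 1 and 5) carry no number, so that outside the MT titles the title series and the genotype cannot be told apart. Of the MT libraries, sgInert replicates 2 and 5 share an animal number, as do sgLkb1 replicates 2 and 3, and n counts libraries and not animals. Summed expected counts were 3935840 to 7791681 in sgInert and 6028918 to 9234685 in sgLkb1 libraries. Levels are given as CPM (counts scaled to a common library total) after TMM scaling, differences as log2 fold changes of sgLkb1 minus sgInert ± standard error, and p-values are those of edgeR's quasi-likelihood test with Benjamini-Hochberg adjustment. A gene is called when its adjusted p is under 0.05 and its log2 fold change is beyond 1 in either direction.

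LKB1 is a serine/threonine kinase that works in a complex with the pseudokinase STRAD and the scaffold MO25 (*Cab39*). It activates AMPK and a family of related kinases, among them the salt-inducible kinases (SIKs), the MARKs and the NUAKs. AMPK senses low cellular energy. SIKs phosphorylate CRTC coactivators and hold them in the cytoplasm, and CRTCs that enter the nucleus switch on genes through CREB. In lung adenocarcinoma, loss of LKB1 is known for faster growth and for tumors with more matrix remodelling and less differentiated cells.

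The targeted gene was lower in all sgLkb1 libraries. *Stk11*, the mouse symbol of *Lkb1* (chr10:80115803-80130682, GRCm38, plus strand), had 19.5 to 22.9 CPM (median 21.4) in sgInert libraries and 9.23, 7.53, 7.58, 12.5 and 8.30 CPM in sgLkb1 replicates 1 to 5, with no overlap between groups. The log2 fold change was -1.24 ± 0.17, adjusted p = 0.000107, which is 2.36-fold lower, and it was -1.16 ± 0.25, adjusted p = 0.0102 among MT titles. Its annotated span overlaps that of *Cbarp*, so that a few reads may belong to the neighbour. Guides cut DNA and need not remove the transcript, and messages that carry small insertions or deletions are counted as *Stk11* all the same.

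Of 13986 genes tested, 421 (3.01%) were called, 261 higher (1.87% of genes tested) and 160 lower (1.14%) in sgLkb1 cells. Without the fold limit, 393 genes were higher (2.81%) and 416 lower (2.97%) by adjusted p, and "by adjusted p" is written of genes that passed it alone. The median log2 fold change over all genes was -0.012. Where limma was applied to log2(TPM + 1) instead, 382 genes were called higher and 90 lower, on a scale where the median of all genes lay at 0.181. Among MT titles alone 515 of 13674 genes (3.77%) were called, 325 higher (2.38%) and 190 lower (1.39%). Most called genes kept their direction within the MT titles. Of the 261 higher genes 252 could be tested there, and all 252 had a positive log2 fold change, 239 above 1, while 164 (62.8% of 261) were called. Of the 160 lower genes 157 could be tested there, 154 had a negative log2 fold change, 128 were below -1 and 104 were called. Since the MT libraries are part of the larger comparison, these counts share samples with it. The libraries outside the MT titles share none with the MT titles but are likewise part of the whole, and 251 of 252 higher genes and 159 of 159 lower genes testable there had the same sign as in the whole comparison. Libraries of the 2 groups did not overlap for 301 genes higher (2.15% of genes tested) and 280 lower (2.00%), and 166 of the 261 and 95 of the 160 called genes were among them.

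The highest of the called genes with non-overlapping groups and an average log2 CPM above 2 were close to silent in sgInert cells. *Rbm24* (chr13:46418434-46431095), an RNA-binding protein known for splicing control in muscle, had 0 to 1.64 CPM (median 0.180) in sgInert and 104, 88.0, 80.2, 131 and 106 CPM in sgLkb1 libraries (log2 fold change 7.97 ± 0.97, adjusted p = 2.61e-05). *Cap2* (chr13:46501848-46650281), a cyclase-associated protein that binds actin, had 0 to 4.51 CPM (median 0.974) and 185, 129, 132, 219 and 169.9 CPM (6.79 ± 0.49, adjusted p = 2.91e-08). Both genes lie on the plus strand of chromosome 13 with 70753 bases between them and no other tested gene in the gap. *Pde10a*, a phosphodiesterase that degrades cAMP and cGMP, had 0 to 0.754 CPM (median 0) against 60.2, 24.0, 33.4, 42.8 and 46.5 CPM (7.42 ± 0.66, adjusted p = 6.01e-07). In the 3 MT sgInert libraries *Pde10a* had 0 counts against 808 in the 3 MT sgLkb1 libraries, so that it was at least 202-fold higher, taking a floor of 3 counts over the group.

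*Ptprn*, a membrane protein of dense-core vesicles known from neuroendocrine cells, had 0.244 to 12.2 CPM (median 3.02) in sgInert and 133, 89.4, 88.9, 145 and 120.3 CPM in sgLkb1 libraries (4.79 ± 0.52, adjusted p = 5.13e-06). *Stc1*, a secreted glycoprotein hormone, had 0 to 4.50 CPM (median 2.12) against 70.1, 32.6, 38.7, 45.9 and 57.5 CPM (4.55 ± 0.49, adjusted p = 5e-06). *Pam*, the enzyme that amidates peptide hormones and a gene named for its small p-value, had 22.6 to 46.8 CPM (median 30.9) and 86.5, 84.3, 81.4, 90.9 and 90.4 CPM (1.34 ± 0.14, adjusted p = 3.54e-06). *Pam* was higher by 2.53-fold and *Ptprn* by 27.7-fold. Groups without overlap and an average log2 CPM above 2 were conditions for naming these 3 genes. The same held for all genes named for a high or low fold change or a small p-value.

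*Ackr3*, an atypical receptor that takes up the chemokine CXCL12, had 0 to 1.22 CPM (median 0.795) and 9.92, 9.25, 6.52, 5.31 and 32.6 CPM (4.25 ± 0.77, adjusted p = 0.00166), with replicate 5 far above the other sgLkb1 libraries. *Mcam*, the adhesion molecule CD146, had 1.70 to 5.40 CPM (median 4.43) and 55.7, 45.3, 46.1, 77.2 and 58.7 CPM (3.97 ± 0.52, adjusted p = 6.16e-05). *Tmem252*, a small membrane protein, had 0.903 to 13.3 CPM (median 6.66) and 103, 82.8, 109.5, 77.1 and 95.7 CPM (3.84 ± 0.38, adjusted p = 2.41e-06). *Slc2a13*, a proton-coupled inositol transporter, had 0 to 8.64 CPM (median 2.65) and 57.7, 44.5, 48.5, 57.5 and 36.8 CPM (4.20 ± 0.74, adjusted p = 0.00131). Only 1 count of *Slc2a13* was seen in the 3 MT sgInert libraries against 1189 in the MT sgLkb1 libraries, a ratio of 891 with an exact counting interval of 160 to 35230. *Map3k15*, a stress-activated kinase of the ASK family, was high in sgLkb1 replicates 2 and 3 (16.3 and 13.5 CPM), which share an animal number, and at 2.65 to 3.23 CPM in the other 3 against 0 to 2.07 CPM (median 0.387) in sgInert (3.71 ± 0.75, adjusted p = 0.0039). *Itgb3*, the beta chain that pairs with the αv integrin, had 0.530 to 3.02 CPM (median 2.10) and 13.2, 23.7, 17.0, 14.5 and 10.6 CPM (3.08 ± 0.31, adjusted p = 2.41e-06), and the last of the genes with the smallest p-values that were higher was *Tshz1*, a zinc-finger transcription factor (16.9 to 32.6 CPM, median 24.8, in sgInert and 115, 74.6, 85.8, 94.7 and 88.4 CPM in sgLkb1 libraries, 1.91 ± 0.19, adjusted p = 1.85e-06).

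**Figure D1:**
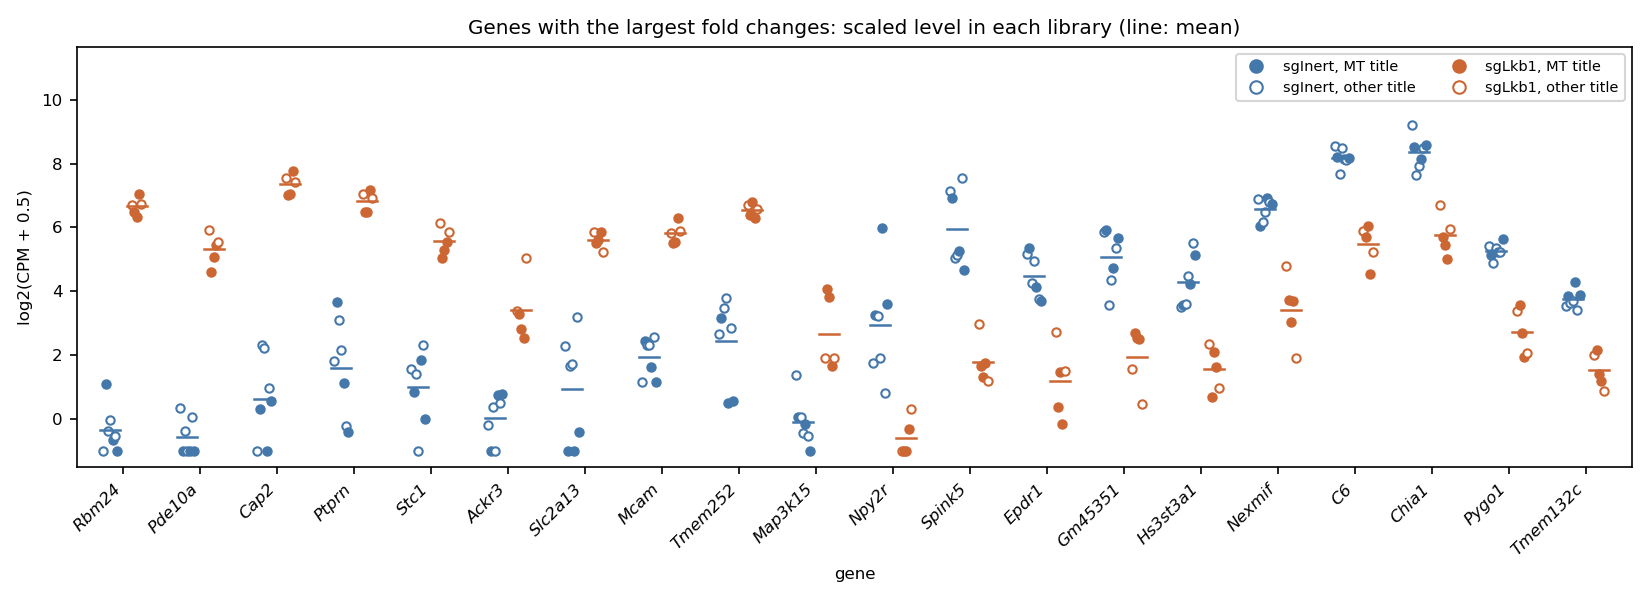
Levels of the 10 genes that rose most and the 10 that fell most among called genes with non-overlapping groups and an average log2 CPM above 2. Values are log2(CPM + 0.5) for each of 7 sgInert (blue) and 5 sgLkb1 (orange) libraries, with the mean as a line and filled points for MT titles. *Rbm24*, *Pde10a* and *Cap2* sit near the bottom of the axis in sgInert and at or above 24.0 CPM in every sgLkb1 library, and *Npy2r* has the reverse pattern.

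Genes at the other end lost most of a level that sgInert cells held. *C6*, a component of the terminal complement complex, had 204 to 375 CPM (median 289.6) in sgInert and 58.0, 51.1, 66.0, 22.5 and 37.1 CPM in sgLkb1 libraries (-2.66 ± 0.43, adjusted p = 0.000615). *Chia1*, an acidic chitinase secreted in lung and stomach, had 201 to 589 CPM (median 356) and 103, 51.6, 43.5, 31.9 and 61.2 CPM (-2.57 ± 0.38, adjusted p = 0.000272). *Nexmif*, an X-linked gene known for its role in neurons, had 65.8 to 121 CPM (median 106) and 26.9, 12.5, 7.74, 12.4 and 3.20 CPM (-2.94 ± 0.32, adjusted p = 6.25e-06). Groups without overlap were a condition for naming these 3 as well. *Nexmif* lies on the X chromosome, and its 3 female sgInert libraries had 65.8, 89.2 and 121 CPM.

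*Spink5*, a serine protease inhibitor of epithelia, had 24.8 to 186 CPM (median 37.9) and 7.27, 2.67, 1.97, 2.85 and 1.75 CPM (-4.61 ± 0.55, adjusted p = 1.96e-05). *Pygo1*, a coactivator of Wnt signalling that binds methylated histone H3, had 28.9 to 48.7 CPM (median 37.1) and 9.81, 11.3, 5.92, 3.34 and 3.64 CPM (-2.50 ± 0.40, adjusted p = 0.00056). *Epdr1*, a lysosomal lipid-binding protein, had 12.4 to 40.6 CPM (median 18.6) and 6.11, 0.784, 2.27, 0.393 and 2.33 CPM (-3.31 ± 0.49, adjusted p = 0.00027). *Spink5* ranged widely within sgInert, from 24.8 to 186 CPM. *Npy2r*, a receptor of neuropeptide Y, was uneven in sgInert cells, with 1.26 to 62.3 CPM (median 8.75), and had 0 counts in 3 of the 5 sgLkb1 libraries. Its counts among MT titles were 581 in sgInert and 3 in sgLkb1 libraries, a ratio of 258 with a counting interval of 88.0 to 1256. Of the 581, 483 came from sgInert replicate 5, which shares an animal number with replicate 2. The remaining genes of the 10 lowest under these conditions were *Hs3st3a1*, a heparan sulfate sulfotransferase (-3.00 ± 0.55, adjusted p = 0.00172), the pseudogene *Gm45351* (-3.27 ± 0.54, adjusted p = 0.000708) and *Tmem132c* (-2.39 ± 0.61, adjusted p = 0.0207). The call of *Tmem132c* was lost without sgLkb1 replicate 4 or 5, with an adjusted p of at most 0.063.

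*Ces1d*, a carboxylesterase that hydrolyses lipids, had 101 to 169 CPM (median 127) and 36.8, 31.0, 45.3, 38.0 and 40.0 CPM (-1.75 ± 0.15, adjusted p = 2.69e-07). *Prps2*, which makes the ribose phosphate donor of nucleotide synthesis, had 226 to 349 CPM (median 246) and 94.5, 82.0, 94.3, 84.6 and 108 CPM (-1.50 ± 0.13, adjusted p = 4.55e-07). *Cat*, the catalase that breaks down hydrogen peroxide, had 1309.7 to 1789 CPM (median 1420.1) and 787, 562, 667, 577 and 729 CPM (-1.18 ± 0.11, adjusted p = 1.04e-06). These were changes of 3.37, 2.83 and 2.27-fold and each was called among MT titles (-1.62, -1.79 and -1.39). *Selenop*, the plasma carrier of selenium, had the smallest p of all tested genes (-1.56 ± 0.09, adjusted p = 4.02e-10). The annotated span of *Selenop* (chr15:3268547-3280508) overlaps at 1 end that of *Ccdc152* (chr15:3280070-3303526), which had a log2 fold change of -1.51. Reads in this overlap may not be told apart. Of the 16 selenoprotein and selenium-handling genes tested, *Selenop* was the sole one called, 2 were lower by adjusted p (*Selenok* the second, -0.49 ± 0.10, adjusted p = 0.0031), and the median was -0.078.

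**Figure D2:**
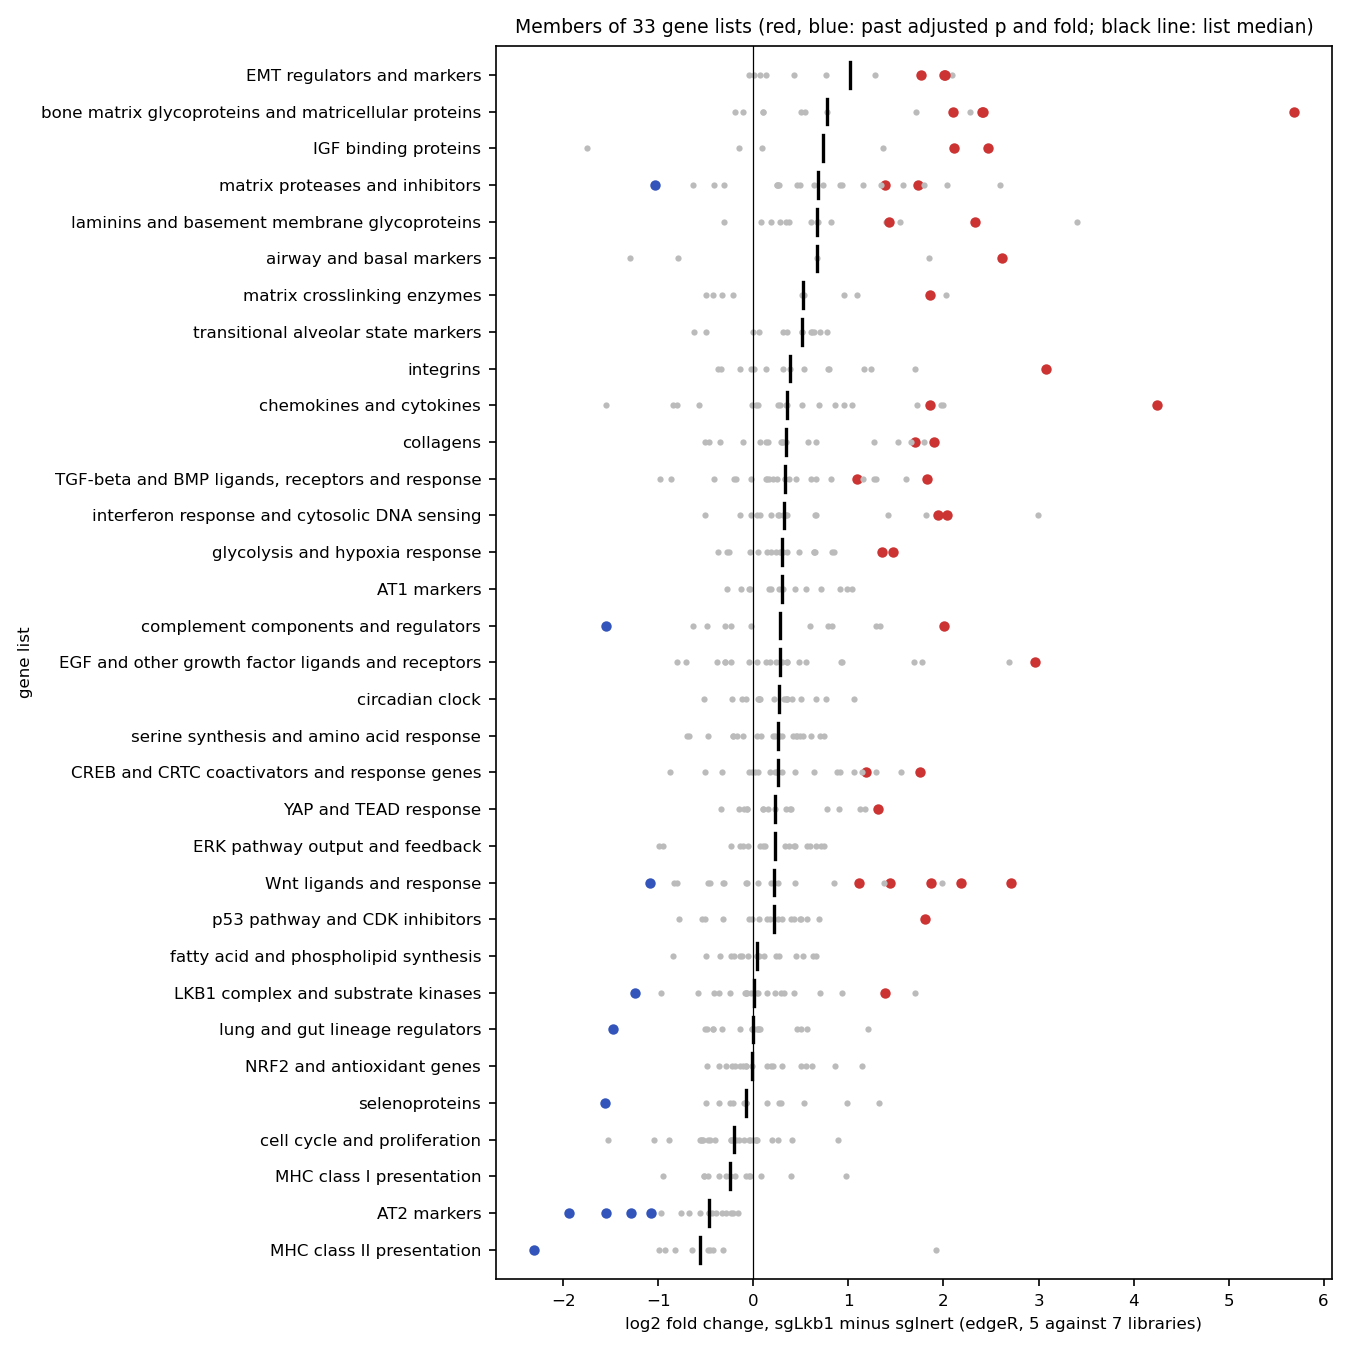
Log2 fold change of each tested member of 33 gene lists, with called members in red (higher) or blue (lower) and the list median as a black line. Medians run from -0.56 (MHC class II presentation) to 1.02 (EMT regulators and markers), and the Wnt list has 5 called higher and 1 called lower.

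The kinases of the LKB1 pathway showed few changes in message. Of 22 tested members of the complex and its substrate kinases, 1 was called higher and 1 lower (*Stk11* itself), and the median was 0.008. *Sik1* had 25.4 to 68.7 CPM (median 36.8) in sgInert and 131, 92.5, 77.3, 98.2 and 131 CPM in sgLkb1 libraries, without overlap (1.38 ± 0.24, adjusted p = 0.000879), and it was called among MT titles (1.47 ± 0.22, adjusted p = 0.000777). *Sik1* is itself a CREB target. The log2 fold change of *Sik2* was 0.93 ± 0.33, adjusted p = 0.109 and that of *Sik3* 0.04 ± 0.13, adjusted p = 0.925. *Prkaa2*, the alpha2 catalytic subunit of AMPK, was lower by adjusted p (-0.97 ± 0.16, adjusted p = 0.000675), whereas *Prkaa1*, the alpha1 subunit, had -0.08 (adjusted p = 0.811). The STRAD genes and *Cab39* did not pass the test.

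Genes that answer to CREB and CRTC moved one by one. Of 23 tested, 2 were called higher and none lower, 3 were higher by adjusted p, and 18 had a positive log2 fold change with a median of 0.26. *Pde4b*, a cAMP phosphodiesterase, had 12.4 to 61.2 CPM (median 18.2) and 116, 76.2, 89.5, 112 and 151 CPM (1.76 ± 0.36, adjusted p = 0.00404). *Fos*, an immediate early transcription factor, had 184 to 1613 CPM (median 842) and 1659, 2492, 2732, 1742 and 2196 CPM (1.18 ± 0.35, adjusted p = 0.047). *Dusp1*, a phosphatase of MAP kinases, was higher by adjusted p (0.91 ± 0.26, adjusted p = 0.0406). In sgInert replicate 6 *Fos* (184 CPM), *Fosb* (18.9), *Dusp1* (105), *Atf3* (28.3) and *Nr4a1* (38.7) were each lower than in any other sgInert library. Among MT titles, which do not include that library, *Fos* had 0.68 ± 0.16, adjusted p = 0.0185 and missed the fold limit. The *Fos* call was lost without sgInert replicate 1, 3 or 4 or without any 1 of the 5 sgLkb1 libraries (largest adjusted p 0.11). Among MT titles 5 of the 23 were called higher, and these were *Pde4b* (2.51), *Fosb* (1.27), *Per1* (1.40), *Rgs2* (2.79) and *Ppargc1a* (1.92), the coactivator of mitochondrial genes. *Nr4a1*, *Nr4a2*, *Nr4a3* and *Crem*, textbook targets of CREB, had 0.44, 0.23, -0.51 and 0.25 and did not pass the test.

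The full cAMP response element (CRE), TGACGTCA, is the palindrome that CREB binds. It was searched on either strand in RefSeq promoter windows of GRCm38.p6, 300 bases each from 250 before to 50 after a start site. Counted by gene, 356 of the 9708 tested genes with a window held it (3.67%), and counted by window it was in 3.07% of 12396. The counts by gene that follow are description only, and no comparison is drawn from them. Windows were given for 81 of the 101 named genes, and 4 of the 81 held the element. For 19 of the 23 tested genes of the CREB list a window was given, and 1 of these held it. The windows of the 3 of these that were called are printed to show where the element lies, with the element in capitals. *Mcam* and *Ltbp1* were higher and *Hs3st3a1* was lower in sgLkb1 cells. The element began 29 bases before the start site of *Mcam* (chr9:44134408-44134707, plus strand), 73 before that of *Ltbp1* (chr17:75005279-75005578, plus strand) and 83 before that of *Hs3st3a1* (chr11:64435082-64435381, plus strand).
Mcam: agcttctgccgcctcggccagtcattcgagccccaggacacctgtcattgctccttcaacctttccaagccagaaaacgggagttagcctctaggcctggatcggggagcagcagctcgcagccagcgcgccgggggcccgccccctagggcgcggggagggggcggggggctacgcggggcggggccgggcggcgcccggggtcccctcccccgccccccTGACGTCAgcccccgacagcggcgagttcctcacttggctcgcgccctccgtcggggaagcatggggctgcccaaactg
Ltbp1: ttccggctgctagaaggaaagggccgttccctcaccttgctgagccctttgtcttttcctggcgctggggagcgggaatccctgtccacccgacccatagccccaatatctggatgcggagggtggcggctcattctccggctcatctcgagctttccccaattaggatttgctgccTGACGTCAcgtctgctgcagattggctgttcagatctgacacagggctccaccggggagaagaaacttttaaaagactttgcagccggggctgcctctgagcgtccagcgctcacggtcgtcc
Hs3st3a1: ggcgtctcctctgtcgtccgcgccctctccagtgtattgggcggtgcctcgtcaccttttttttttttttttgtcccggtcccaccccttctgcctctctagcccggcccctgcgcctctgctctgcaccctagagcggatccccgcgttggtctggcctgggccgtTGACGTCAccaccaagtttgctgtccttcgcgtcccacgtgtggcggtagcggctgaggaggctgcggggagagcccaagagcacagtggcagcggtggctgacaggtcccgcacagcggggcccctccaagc

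Markers of the alveolar type II (ATII) cell, which makes surfactant, were lower in part. All 17 tested had a negative log2 fold change, 10 were lower by adjusted p and 4 were called, with a list median of -0.47. The called genes were *Lyz2*, lysozyme (-1.94 ± 0.34, adjusted p = 0.00104), *Hc*, complement C5 (-1.55 ± 0.20, adjusted p = 5.3e-05), *Cxcl15*, a lung chemokine (-1.28 ± 0.27, adjusted p = 0.00485), and *Sftpa1*, surfactant protein A (-1.08 ± 0.21, adjusted p = 0.0031). Reads of *Lyz2* may be shared with its near-identical neighbour *Lyz1*, which was also called (-2.59). *Sftpc*, surfactant protein C, had -0.39 ± 0.11, adjusted p = 0.0324. *Id2*, a helix-loop-helix inhibitor of differentiation factors that marks distal lung progenitors, had 90.7 to 251 CPM (median 145) and 54.5, 51.4, 84.0, 58.4 and 48.6 CPM (-1.48 ± 0.27, adjusted p = 0.00165) and was the sole called member of the 18 lineage regulators tested. *Nkx2-1*, the lineage factor of lung, had -0.01 ± 0.12, adjusted p = 0.97, and *Cebpa* had -0.42 ± 0.16, adjusted p = 0.125 (-0.71 ± 0.15, adjusted p = 0.00796 among MT titles).

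Markers of alveolar type I (ATI) cells and of the transitional keratin-rich state were higher in part, and edgeR called none of them. Of 15 ATI markers tested 2 were higher by adjusted p, *Emp2* (0.44 ± 0.10, adjusted p = 0.00767) and *Akap5* (0.92 ± 0.26, adjusted p = 0.0393), and 11 had a positive log2 fold change, with a median of 0.30 (6 at an unadjusted p under 0.05 by edgeR, no call by DESeq2 and 2 by limma on log2(TPM + 1)). *Spock2*, an ATI marker beyond the fold limit, had 1.04 ± 0.43, adjusted p = 0.176 and did not pass the test. Of 13 transitional markers 2 were higher by adjusted p, the keratins *Krt18* (0.70 ± 0.15, adjusted p = 0.00592) and *Krt7* (0.61 ± 0.16, adjusted p = 0.0243), with a median of 0.51 (6 at an unadjusted p under 0.05, and no call by DESeq2). *Krt18* had 73.4 to 159 CPM (median 126) in sgInert and 164, 218, 224, 234 and 187 CPM in sgLkb1 libraries, without overlap. Among MT titles *Hopx*, an ATI transcriptional cofactor, was called (1.45 ± 0.18, adjusted p = 0.00022), as was *Akap5* (1.46 ± 0.29, adjusted p = 0.00694). Of 5 airway and basal markers tested 1 was called higher. The airway mucin *Muc5b* had 0 to 8.15 CPM (median 0.540) and 29.7, 13.8, 8.19, 1.77 and 22.4 CPM (2.61 ± 0.77, adjusted p = 0.0464), and its call was lost in each of the 12 fits that left out 1 library except those without sgInert replicate 3 or 4 or sgLkb1 replicate 4 (largest adjusted p 0.141). *Cyp2f2*, a club cell enzyme, was lower by adjusted p (-0.79 ± 0.22, adjusted p = 0.0391).

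Matrix genes were covered by 7 lists. Of 13 bone matrix and matricellular genes 4 were called higher, of 21 collagens 2, of 15 laminins and basement membrane glycoproteins 2, of 22 proteases and inhibitors 2 higher and 1 lower, of 12 genes of epithelial-mesenchymal transition (EMT) 3, of 15 integrins 1 and of 10 crosslinking enzymes 1. The list medians were 0.78, 0.34, 0.67, 0.68, 1.02, 0.38 and 0.52 in this order. Among MT titles 5, 6, 1, 6, 2, 2 and 2 genes of these lists were called higher and 1 protease or inhibitor lower, and the medians were 1.23, 0.92, 0.71, 1.14, 0.43, 0.62 and 0.29, which include fitted values of genes with few counts. *Zeb2*, *Lamb1* and *Col7a1* were not called among MT titles (adjusted p of 0.0795, 0.064 and 0.105). *Fn1*, fibronectin, had 25.8 to 204 CPM (median 116) in sgInert and 745, 596, 686, 435 and 584 CPM in sgLkb1 libraries (2.40 ± 0.39, adjusted p = 0.00056), and *Tgfbi*, a matrix protein induced by TGF-beta, had 28.1 to 102 CPM (median 93.6) and 371, 276, 339, 244 and 297 CPM (2.02 ± 0.29, adjusted p = 0.000164). *Mmp14*, a membrane-bound metalloprotease, had 10.2 to 17.5 CPM (median 12.5) and 37.0, 36.8, 29.6, 36.3 and 41.1 CPM (1.39 ± 0.18, adjusted p = 6.08e-05). These 3 were free of overlap and kept their call in each of the 12 fits that left out 1 library.

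Other matrix genes rose from low levels. *Ibsp*, a sialoprotein of mineralized bone, had 0 counts in all sgInert libraries but replicate 6 (0.900 CPM) and 2.31, 15.4, 10.5, 0.197 and 12.7 CPM in sgLkb1 libraries (5.69 ± 0.94, adjusted p = 0.000663). In summed counts of MT titles it was at least 42.2-fold higher (0 against 169 counts, floor of 3 counts over the group). Of these *Ibsp* counts, 98 and 69 came from sgLkb1 replicates 2 and 3, which share an animal number, and 2 from replicate 4. *Sparcl1*, its neighbour on chromosome 5 with 185438 bases between them, is an adhesion-modulating glycoprotein and had 6.32 to 63.7 CPM (median 23.6) and 139, 114, 78.1, 74.6 and 194 CPM (2.10 ± 0.48, adjusted p = 0.0101). *Nid1*, which links laminin to collagen IV, had 2.39 to 12.1 CPM (median 3.61) and 39.3, 17.1, 17.0, 19.9 and 54.8 CPM (2.33 ± 0.43, adjusted p = 0.00199), and the laminin chain *Lamb1* had 5.85 to 14.3 CPM (median 8.64) and 25.4, 25.2, 16.7, 24.2 and 36.8 CPM (1.43 ± 0.27, adjusted p = 0.00212). *Adam12*, a metalloprotease, rose as well (1.74 ± 0.35, adjusted p = 0.00374), while *Adamts1*, another, fell (-1.03 ± 0.19, adjusted p = 0.00184). The integrin chain *Itgav*, the partner of *Itgb3*, was higher by adjusted p (0.80 ± 0.15, adjusted p = 0.0021), and both chains were called among MT titles (1.13 and 3.51).

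Several matrix and EMT calls were lost in fits that left out 1 library. *Vim*, an intermediate filament of mesenchymal cells (2.00 ± 0.56, adjusted p = 0.0339), *Zeb2*, an EMT transcription factor (1.77 ± 0.51, adjusted p = 0.0407), and *Col3a1*, a fibrillar collagen (1.70 ± 0.50, adjusted p = 0.0435), lost their calls in most of the 12 fits that left out 1 library. The call of *Vim* was lost in each of the 12 fits that left out 1 library except those without sgInert replicate 3 or 6 or sgLkb1 replicate 3 or 4 (largest adjusted p 0.121), that of *Zeb2* in each of the 12 fits that left out 1 library except those without sgInert replicate 6 or sgLkb1 replicate 3 or 4 (0.174) and that of *Col3a1* in each of the 12 fits that left out 1 library except those without sgInert replicate 6 (0.121). *Postn*, periostin (2.42 ± 0.61, adjusted p = 0.0209), lost its call without sgLkb1 replicate 5 (0.0785), *Col7a1*, the collagen of anchoring fibrils (1.90 ± 0.47, adjusted p = 0.0192), without sgLkb1 replicate 4 (0.0546), and *Lox*, lysyl oxidase (1.86 ± 0.49, adjusted p = 0.0261), without sgInert replicate 1 or 2 or sgLkb1 replicate 3 or 5 (at most 0.0751). *Adamts1* lost the fold limit without sgInert replicate 2, 5 or 7 or sgLkb1 replicate 2.

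Markers of other cell types moved with the matrix genes. The summed level of 10 fibroblast markers was 11.8 to 164 CPM (median 51.4) in sgInert and 99.4 to 270 CPM (median 214) in sgLkb1 libraries, and 11.8 to 31.4 against 99.4 to 224 CPM among MT titles. No marker of the list was at 0 in all libraries of a group, and 2 of the 9 that passed the filter were called higher (*Col3a1* and *Dcn*). For 10 endothelial markers the sums were 21.3 to 62.4 and 74.6 to 275 CPM, although the gate removed CD31-positive cells, and 1 of 10 was called (*Emcn*). The 5 mesothelial markers summed to 0 to 3.45 and 6.90 to 21.1 CPM. Most of this was *Msln*, the sole one to pass the filter, which was called. The 5 smooth muscle markers summed to 2.68 to 9.80 and 5.51 to 17.0 CPM, and the 13 leukocyte markers to 16.6 to 54.3 and 20.5 to 99.6 CPM. Of these, 3 mesothelial and 2 leukocyte markers were at 0 in all sgInert libraries, and 1 of each list was at 0 in all sgLkb1 libraries. The 6 red cell markers stayed at or under 3.06 CPM in either group. The 7 epithelial markers summed to 14400 to 18800 and 12300 to 15600 CPM, most of it *Sftpc*, an ATII marker that was lower by adjusted p. Of the 7, 5 had a positive log2 fold change, with a list median of 0.13, and 1 was higher and 1 lower by adjusted p. The part of fibroblast and endothelial RNA in the matrix and EMT results was not tested, and in bulk samples fewer cells of a type and less RNA per cell cannot be told apart.

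The leukocyte and smooth muscle sums overlapped between the groups, and the fibroblast sums overlapped in 1 pair of libraries. The fibroblast sum was higher in sgInert replicate 6 (164 CPM) than in sgLkb1 replicate 4 (99.4 CPM). Between these 2 libraries *Col3a1*, one of the summed markers, was higher in the sgInert library (42.1 in sgInert and 30.9 CPM in sgLkb1), as did *Postn* (27.2 and 10.8), *Lox* (19.3 and 11.6) and *Zeb2* (27.2 and 14.7). *Fn1* (193 and 435), *Tgfbi* (102 and 244), *Itgb3* (2.34 and 14.5), *Mcam* (5.40 and 77.2) and *Cap2* (1.44 and 219) were higher in the sgLkb1 library. So were 237 of all 261 called higher genes. Both libraries were in the fit that called these genes, so this count is no independent test. The share over all tested genes was not counted. The endothelial sums of these 2 libraries were 52.9 CPM in sgInert and 134.6 CPM in sgLkb1, and the part of other cell types in these genes was not tested.

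**Figure D3:**
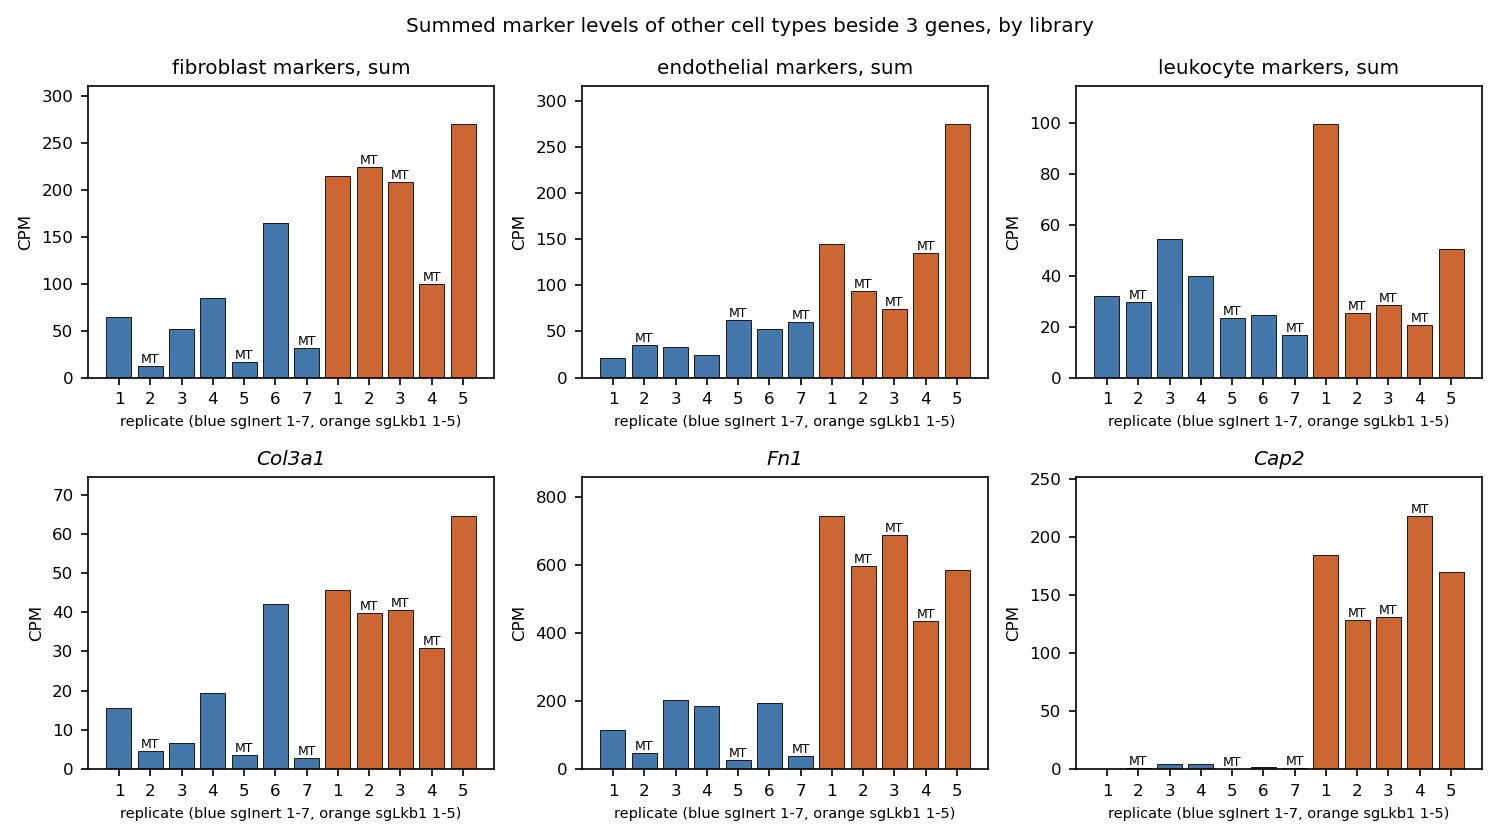
Summed CPM of fibroblast, endothelial and leukocyte markers (top) and CPM of *Col3a1*, *Fn1* and *Cap2* (bottom) in each sgInert (blue) and sgLkb1 (orange) library, with MT titles marked. *Col3a1* is one of the fibroblast markers summed above. sgInert replicate 6 has the highest fibroblast sum of its group, 164 CPM, and *Cap2* is at most 4.51 CPM in every sgInert library.

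Among signalling lists, Wnt genes held the most calls over all libraries. Of 23 tested, 5 were called higher and 1 lower, with a median of 0.22 and 14 positive, and among MT titles 2 of 23 were called higher (*Wnt5a* and *Porcn*) and none lower. The ligands *Wnt5a* (0 to 7.22 CPM, median 2.16, in sgInert and 6.23, 13.2, 10.5, 10.03 and 16.5 CPM in sgLkb1 libraries, 2.18 ± 0.56, adjusted p = 0.0227) and *Wnt7a* (5.94 to 11.9 CPM, median 8.39, in sgInert and 24.9, 10.7, 17.3, 21.3 and 16.5 CPM in sgLkb1 libraries, 1.11 ± 0.24, adjusted p = 0.00587) were higher, as were *Porcn*, the enzyme that adds the lipid of Wnt ligands (1.44 ± 0.40, adjusted p = 0.0342), the receptor *Lgr6* (2.72 ± 0.70, adjusted p = 0.0222) and the transcription factor *Tcf7* (1.87 ± 0.50, adjusted p = 0.0272). *Lgr4*, a receptor that strengthens Wnt signals, was lower (-1.09 ± 0.30, adjusted p = 0.0345). Among MT titles the adjusted p was 0.0598 for *Wnt7a*, 0.118 for *Lgr6*, 0.343 for *Tcf7* and 0.163 for *Lgr4*. *Axin2*, *Nkd1*, *Rnf43*, *Znrf3* and *Lef1*, genes commonly read as the response to beta-catenin, had -0.45, 0.26, -0.31, 0.05 and -0.08 and none passed the test. Of these 6 calls every one was lost in some fit that left out 1 library: *Wnt5a* without sgLkb1 replicate 2 or 5 (0.0648 at most), *Wnt7a* without sgLkb1 replicate 1, where the adjusted p stayed at 0.0251 or below and the fold limit was missed, *Lgr6* without sgLkb1 replicate 1 (0.0683), *Tcf7* without sgInert replicate 2 or sgLkb1 replicate 1, 2 or 5 (0.108 at most), *Lgr4* in each of the 12 fits that left out 1 library except those without sgInert replicate 1, 2, 3, 5 or 7 (0.0855) and *Porcn* in each of the 12 fits that left out 1 library except those without sgInert replicate 2, 3 or 6 or sgLkb1 replicate 1 (0.109). *Wnt5a* had 3 counts in the 3 MT sgInert libraries and 255 in the MT sgLkb1 libraries, a ratio of 63.7 with a counting interval of 21.6 to 311.

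Of 23 growth factor ligands and receptors 1 was called higher and none lower. The ligand *Btc* was higher by adjusted p (0.93 ± 0.27, adjusted p = 0.0445) and was called among MT titles (1.08, adjusted p = 0.00387). *Hgf*, the ligand of MET, was higher (0 to 1.98 CPM, median 0.189, in sgInert and 3.92, 3.29, 4.70, 3.15 and 9.03 CPM in sgLkb1 libraries, 2.96 ± 0.84, adjusted p = 0.0381) but lost its call in each of the 12 fits that left out 1 library except those without sgInert replicate 6 (adjusted p up to 0.124). Among MT titles *Hgf* had 3.42 ± 1.12, adjusted p = 0.0877 and was not called. *Met*, its receptor, was lower by adjusted p with no overlap (297 to 466 CPM, median 373, in sgInert and 231, 226, 244, 226 and 229 CPM in sgLkb1 libraries, -0.71 ± 0.18, adjusted p = 0.0231). Another receptor, *Fgfr2*, was also lower by adjusted p (-0.80 ± 0.23, adjusted p = 0.038), with -0.46 ± 0.22, adjusted p = 0.262 among MT titles. Of 24 genes of the TGF-beta and BMP list 2 were called, both higher: the ligand *Tgfb2* (5.85 to 23.9 CPM, median 14.6, in sgInert and 26.3, 30.9, 36.6, 36.9 and 25.2 CPM in sgLkb1 libraries, 1.09 ± 0.21, adjusted p = 0.0023) and *Ltbp1*, which anchors latent TGF-beta in the matrix (1.83 ± 0.51, adjusted p = 0.0335). *Tgfb2* missed the fold limit without sgInert replicate 7, its lowest library, and *Ltbp1* lost its call in each of the 12 fits that left out 1 library except those without sgInert replicate 1 or 4 or sgLkb1 replicate 4 or 5 (adjusted p up to 0.116). The receptor *Tgfbr2* was higher by adjusted p (0.60 ± 0.12, adjusted p = 0.00377).

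The IGF-binding proteins gave 2 calls among 6 tested genes of the list. *Igfbp3* had 1.44 to 6.99 CPM (median 3.90) in sgInert and 17.8, 10.3, 15.2, 17.9 and 21.1 CPM in sgLkb1 libraries (2.11 ± 0.44, adjusted p = 0.00491), and *Igfbp5* had 0 to 10.6 CPM (median 2.65) and 18.8, 16.5, 13.3, 17.1 and 31.0 CPM (2.47 ± 0.51, adjusted p = 0.00457). Both were without overlap, and both were called among MT titles (1.70 ± 0.29, adjusted p = 0.00248 and 4.39 ± 0.51, adjusted p = 0.00012). Of 21 chemokines and cytokines 2 were called, both higher: *Ackr3*, given above, and *Lif*. *Lif*, a cytokine of the interleukin-6 family, had 2.34 to 19.4 CPM (median 5.16) and 31.5, 16.9, 22.8, 39.7 and 31.0 CPM (1.85 ± 0.42, adjusted p = 0.00919), and its groups overlapped through sgInert replicate 3. Of 17 YAP and TEAD response genes 1 was called, *Crim1* (1.31 ± 0.36, adjusted p = 0.03), and its call was lost without sgInert replicate 2, 5 or 7 or sgLkb1 replicate 1 or 5 (adjusted p up to 0.102). Among MT titles 5 of the 17 were called higher, among them *Ctgf* (1.30 ± 0.28, adjusted p = 0.0121) and *Nt5e*, the surface enzyme that makes adenosine (1.95 ± 0.42, adjusted p = 0.011). *Ctgf* and *Nt5e* had 0.78 and 1.12 over all libraries and did not pass the test.

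Outputs of the ERK pathway, a growth signal, gave no call by edgeR or DESeq2 among 18 tested genes (8 at an unadjusted p under 0.05), with a median of 0.23. *Dusp6*, *Spry2*, *Spry4* and *Ccnd1* had 0.07, -0.23, 0.13 and 0.44, and none of these passed the test. *Myc* was lower by adjusted p, with 17.1 to 57.3 CPM (median 36.2) and 19.6, 15.8, 17.6, 22.2 and 26.1 CPM (-0.96 ± 0.24, adjusted p = 0.0177), and it was called among MT titles (-1.10 ± 0.24, adjusted p = 0.0126). *Spred1*, a brake on ERK signalling, was slightly higher (0.33 ± 0.09, adjusted p = 0.027).

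**Figure D4:**
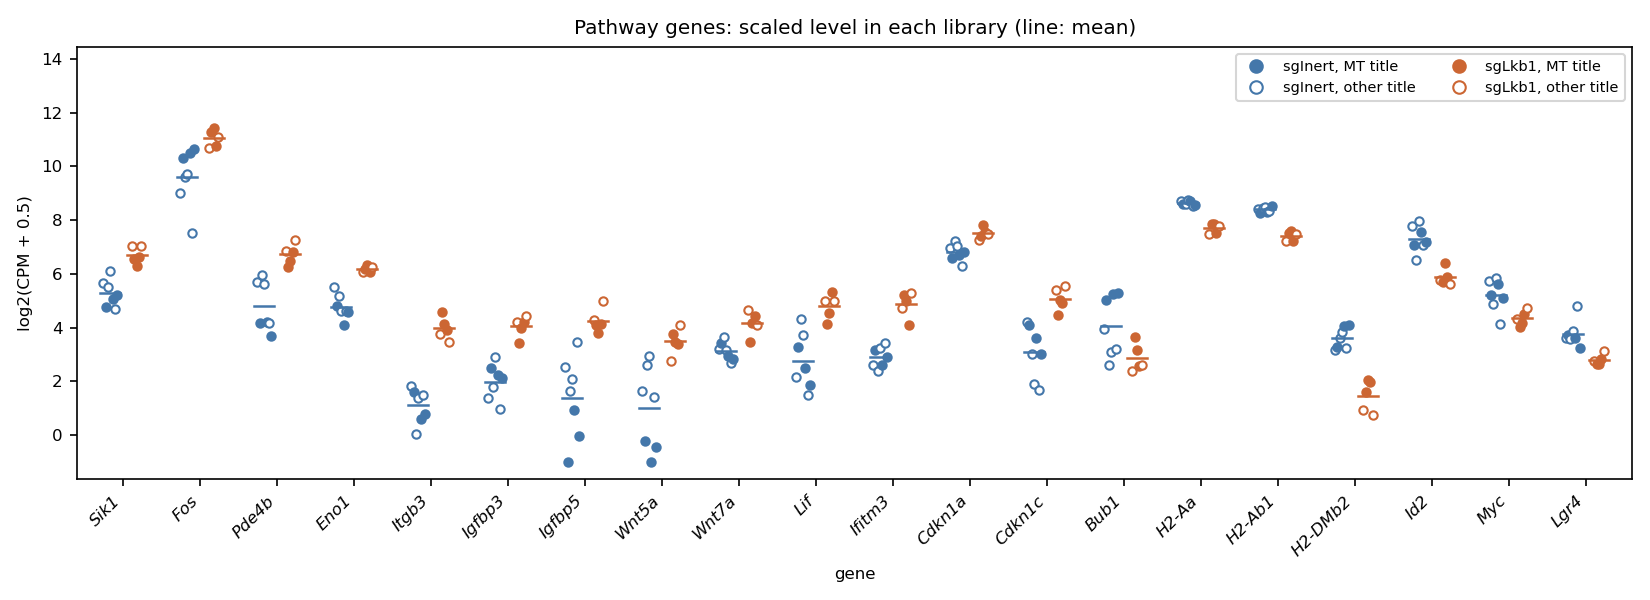
Levels of 20 genes of signalling, metabolism, cell cycle and antigen presentation as log2(CPM + 0.5) in each sgInert (blue) and sgLkb1 (orange) library, with the mean as a line and filled points for MT titles. *Eno1*, *Itgb3* and *Ifitm3* are higher and *H2-Aa*, *H2-Ab1* and *H2-DMb2* lower in every sgLkb1 library, while the filled sgInert points of *Bub1* lie above the open ones.

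Genes of MHC class II presentation were lower in part. ATII cells are known to carry MHC class II on their surface. Of 10 tested genes 5 were lower by adjusted p, 1 was called and the median was -0.56. *H2-Aa* (372 to 426 CPM, median 387, in sgInert and 179, 230.0, 233, 184 and 217 CPM in sgLkb1 libraries, -0.93 ± 0.09, adjusted p = 1.85e-06) and *H2-Ab1* (308 to 367 CPM, median 343, in sgInert and 148, 184, 192, 151 and 177 CPM in sgLkb1 libraries, -0.99 ± 0.10, adjusted p = 2.65e-06), the chains of the I-A molecule, were each just under the fold limit with no overlap. *H2-DMb2*, a chain of the peptide exchange factor, was called (8.49 to 16.8 CPM, median 11.7, in sgInert and 1.38, 2.51, 3.64, 3.44 and 1.17 CPM in sgLkb1 libraries, -2.31 ± 0.32, adjusted p = 0.000114). The invariant chain *Cd74* (-0.64 ± 0.09, adjusted p = 6.8e-05) and *H2-Eb1* (-0.82 ± 0.13, adjusted p = 0.000449) were the other 2, and *Ciita*, the activator of class II genes, had -0.32 ± 0.15, adjusted p = 0.271. All 5 were also lower by adjusted p among MT titles, with log2 fold changes of -0.88, -0.93, -2.13, -0.52 and -0.79. Leukocyte markers, whose cells also express class II genes, summed to a median of 29.5 CPM in sgInert and 28.5 CPM in sgLkb1 libraries. In the libraries at these medians (sgInert replicate 2 and sgLkb1 replicate 3) most of the sum was *Cd14* (17.5 and 15.9 CPM) and *Cd68* (10.2 and 7.74 CPM). *Ptprc* had 42.7 and 7.72 CPM in sgLkb1 replicates 1 and 5 and at most 4.66 CPM elsewhere, whereas *Laptm5* was highest in sgInert replicate 3 (8.48 CPM). The part of leukocytes in the result was not tested.

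Class I genes gave no call. The interferon list had 15 of 18 positive log2 fold changes, a median of 0.33 and 3 genes called higher among MT titles. None of 15 class I genes passed edgeR's test (2 at an unadjusted p under 0.05, and no call by DESeq2), with a median of -0.24, and *B2m*, the light chain, had -0.95 ± 0.32, adjusted p = 0.0835. Of 18 interferon and DNA-sensing genes 2 were called, *Ifitm3* (4.77 to 10.3 CPM, median 7.06, in sgInert and 25.8, 36.5, 31.2, 16.5 and 38.9 CPM in sgLkb1 libraries, 2.03 ± 0.28, adjusted p = 9.72e-05), a membrane protein that blocks virus entry, and *Ifit2* (1.95 ± 0.50, adjusted p = 0.0222), which lost its call without sgLkb1 replicate 2 or 3 (0.0873 at most). The sensor genes *Tmem173* (STING) and *Mb21d1* (cGAS) had 0.04 ± 0.23, adjusted p = 0.96 and 0.34 ± 0.66, adjusted p = 0.852. Among 12 complement genes *Hc* was called lower and *C4b* higher (2.01 ± 0.56, adjusted p = 0.0345), and the call of *C4b* was lost without sgInert replicate 1, 2 or 7 or sgLkb1 replicate 1, 3 or 5 (adjusted p up to 0.109). *Cd55* and *Cd59a*, surface brakes on complement, were lower by adjusted p (-0.49 ± 0.14, adjusted p = 0.0345 and -0.63 ± 0.18, adjusted p = 0.0376).

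In metabolism, single glycolytic enzymes rose. Of 20 glycolysis and hypoxia genes 4 were higher by adjusted p and 2 were called, with a median of 0.30. *Eno1*, enolase, had 16.6 to 45.5 CPM (median 24.0) in sgInert and 66.0, 72.3, 79.2, 66.6 and 75.0 CPM in sgLkb1 libraries (1.36 ± 0.18, adjusted p = 8.41e-05), followed by *Aldoa*, aldolase (0.63 ± 0.14, adjusted p = 0.00828), and *Pkm*, pyruvate kinase (0.64 ± 0.18, adjusted p = 0.0364). *Ankrd37*, a hypoxia-induced gene, was called (1.47 ± 0.40, adjusted p = 0.0319) but lost its call in each of the 12 fits that left out 1 library except those without sgInert replicate 1, 3 or 6 or sgLkb1 replicate 2 or 4 (adjusted p up to 0.125). The glucose transporter *Slc2a1* had 0.28 ± 0.24, adjusted p = 0.595, *Hk2* had -0.27 ± 0.18, adjusted p = 0.458 and *Ldha* had 0.24 ± 0.13, adjusted p = 0.335. Of 23 genes of serine synthesis and the amino acid response none was called by edgeR or DESeq2 (4 at an unadjusted p under 0.05), and the arginine transporter *Slc7a1* was higher by adjusted p (0.70 ± 0.19, adjusted p = 0.0312). None of 19 fatty acid and phospholipid genes was called by edgeR or DESeq2 (7 at an unadjusted p under 0.05), and *Pcyt1a*, the rate-limiting enzyme of phosphatidylcholine synthesis, was lower by adjusted p (-0.85 ± 0.21, adjusted p = 0.0177). Of 19 NRF2 and antioxidant genes none was called by edgeR and 1 by DESeq2 (4 at an unadjusted p under 0.05), and *Txn1*, thioredoxin, was lower by adjusted p (-0.37 ± 0.09, adjusted p = 0.018). *Scd1* had 0.53 ± 0.18, adjusted p = 0.0916, *Gsr* had 0.62 ± 0.19, adjusted p = 0.0622 and *Slc3a2* had 0.52 ± 0.17, adjusted p = 0.0766.

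Cell cycle genes did not pass the test over all libraries. Of 26 tested none was called or past the adjusted p by edgeR in either direction (1 at an unadjusted p under 0.05, and 1 called by DESeq2), and the median was -0.20. *Bub1*, a kinase of the spindle checkpoint, had 5.57 to 38.2 CPM (median 15.1) in sgInert and 4.73, 12.1, 8.49, 5.51 and 5.53 CPM in sgLkb1 libraries (-1.52 ± 0.56, adjusted p = 0.119). The 3 MT sgInert libraries had 31.9, 37.5 and 38.2 CPM of *Bub1* and the 4 ZR sgInert libraries 5.57 to 15.1, so that the sgInert level went with the title. *Fn1*, described above, had the reverse order within sgInert, with 25.8 to 47.5 CPM in the MT and 116 to 204 CPM in the ZR libraries. Among MT titles 4 of the 26 were called, all lower: *Bub1* (-2.07 ± 0.29, adjusted p = 0.000578), *Mki67*, the proliferation antigen Ki-67 (-1.32 ± 0.37, adjusted p = 0.0435), *Cdk1*, the mitotic kinase (-1.55 ± 0.41, adjusted p = 0.0346), and *Mcm5*, a subunit of the replicative helicase (-1.65 ± 0.41, adjusted p = 0.0243). The MT median of the list was -0.86. *Ccnb1* had -1.05 ± 0.72, adjusted p = 0.485 over all libraries. Of 18 genes of the p53 and CDK inhibitor list 1 was called, *Cdkn1c*, which was not called among MT titles (1.18 ± 0.39, adjusted p = 0.0939). *Cdkn1a* (p21) had 78.7 to 148 CPM (median 111) and 153, 171, 223, 186 and 179 CPM (0.69 ± 0.14, adjusted p = 0.00395) and *Cdkn1c* (p57) 2.70 to 17.9 CPM (median 7.69) and 41.9, 21.5, 31.7, 29.3 and 46.3 CPM (1.81 ± 0.42, adjusted p = 0.0114), while *Cdkn2c* (p18) was lower by adjusted p (-0.78 ± 0.23, adjusted p = 0.0455). None of 18 clock genes passed edgeR's test over all libraries (2 at an unadjusted p under 0.05, and 1 called by DESeq2), and *Per1* and *Rora* had 1.06 ± 0.34, adjusted p = 0.07 and -0.52 ± 0.16, adjusted p = 0.0545.

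The difference between the MT and the other libraries was tested directly in the 12 sgInert and sgLkb1 libraries. The fold change differed at an adjusted p under 0.05 for 7 genes (1150 at an unadjusted p under 0.05), of which 1 was among the called higher genes (*Slc2a13*) and 2 among the called lower genes, *Hspa1a* and *Hspa1b*. These 2 are near-identical inducible heat shock genes whose reads can be split between them, and they were named after their values were seen. *Hspa1a* had -2.18 ± 0.62, adjusted p = 0.0383 over all libraries, but 0.53 ± 0.53, adjusted p = 0.654 among MT titles and -3.34 among the others. *Hspa1b* had -2.35 ± 0.61, adjusted p = 0.0246, 0.23 ± 0.50, adjusted p = 0.857 and -3.12. *Hspa1b* levels were 150.5, 123 and 64.8 CPM in the MT and 1508, 885, 902 and 941 CPM in the ZR sgInert libraries, against 107, 87.0, 168, 146 and 134 CPM in sgLkb1. Without the libraries outside the MT titles neither gene was called. The other 4 were *Psca*, *Gm10036*, *Rps3a2* and *Rps3a3*, which were not called over all libraries.

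**Figure D5:**
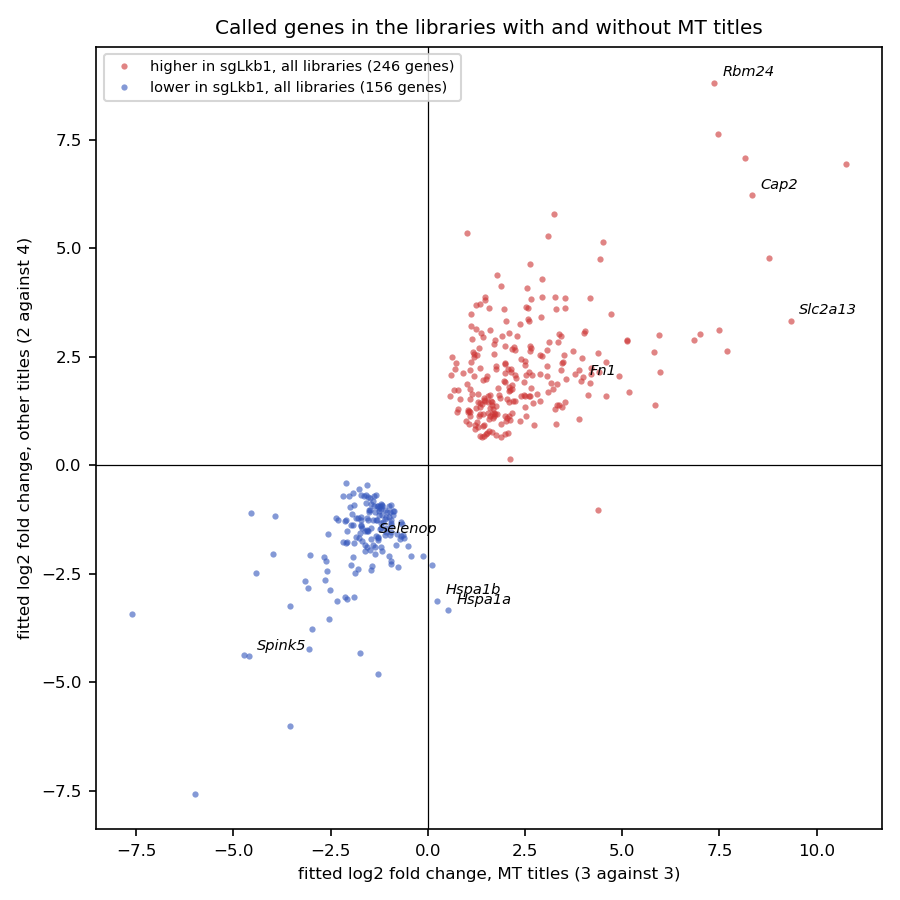
Fitted log2 fold change of called genes among MT titles (horizontal, 3 against 3 libraries) and among the other titles (vertical, 2 sgLkb1 against 4 sgInert libraries), for the 246 higher (red) and 156 lower (blue) genes that could be fitted in both. *Hspa1a* and *Hspa1b* lie right of 0 and below it, and *Rbm24* and *Cap2* are high on both axes.

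Calls of either direction were also counted over all processing alternatives. Of the 261 higher genes 138 kept their call in each of the 12 fits that left out 1 library, and 32 in each of these and each of 16 other settings. Of the 160 lower genes these counts were 95 and 18. *Rbm24*, *Pde10a*, *Cap2*, *Ptprn*, *Stc1*, *Ackr3*, *Slc2a13*, *Mcam*, *Tmem252*, *Tshz1*, *Pam*, *Fn1*, *Tgfbi*, *Mmp14* and *Ifitm3* among the higher and *Gm45351*, *C6*, *Pygo1*, *Selenop*, *Ces1d*, *Prps2*, *Lyz2*, *Hc* and *H2-DMb2* among the lower genes named above kept theirs in every one. Since all sgLkb1 libraries came from females, a fit of female libraries alone (5 against 3) was among the settings: it called 356 genes higher and 207 lower, with 195 of the 261 and 122 of the 160 among them, and all 418 called genes testable there had the same sign. The female libraries are part of the whole comparison, so these counts share samples with it and are no independent test of sex. On the X chromosome 4.98% of 422 tested genes were called, 7 higher and 14 lower. The Y-linked *Kdm5d* is also among the 160 lower genes, with 0 counts in 4 of the 5 sgLkb1 libraries and in the 3 female sgInert libraries, and it did not pass the count filter among MT titles.

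Called genes that follow each other on a chromosome, with no other tested gene between, made 34 pairs, of which 30 had the same direction. The share of same-direction pairs among all neighbouring tested genes was not counted, so the number has no background. Gaps within pairs reached 2494256 bases. Besides *Rbm24* and *Cap2* they included *Tmem252* and *Pgm5*, a phosphoglucomutase-related gene of adherens junctions, 783 bases apart (3.84 and 2.75). The leptin receptor gene *Lepr* (2.62 ± 0.51, adjusted p = 0.00278) lay 272191 bases from *Pde4b*. *Rgs5* (3.32 ± 0.66, adjusted p = 0.00333), a regulator of G protein signalling that marks pericytes, lay next to *Rgs4* (1.28). Some pairs were overlapping or near-identical genes, such as *Selenop* and *Ccdc152*, *Lyz2* and *Lyz1*, and *Hspa1a* and *Hspa1b*, whose estimates are not independent.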

How the data were processed

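RNA of sorted tumor cells was made into libraries with the Trio RNA-Seq kit, and the authors aligned reads to mm10 with STAR 2.6.1d and estimated gene levels with RSEM 1.2.30, run with standard parameters. The expected counts that the authors deposited are estimated, carry no normalization and can be fractional, so they were rounded here. TPM values, deposited beside them, also take gene length into account. Reads with several possible sources are shared out by RSEM's model, so values of near-identical genes depend on each other. The authors' DESeq2 1.26.0 results (normalized counts, fold changes and p-values of the group comparisons) were not used here.

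Groups, replicate numbers and sexes came from the labels. One allele that all mice share is not reported here. Genes were filtered by filterByExpr (minimum count 10, minimum total 15), which left 13986. edgeR 4.0.16 (TMM, glmQLFit, glmQLFTest) fitted all 19 libraries in 1 model with no covariate, and the 10 MT titles (3 sgInert, 4 sgCebpa/b/d, 3 sgLkb1) in a second. The standard error is the log2 fold change divided by the square root of F. TMM factors were above 1 in every sgLkb1 library and below 1 in every sgInert library. No pair of libraries agreed within counting noise (chi-square per gene 12.8 to 51.4). limma 3.58.1 on log2(TPM + 1) and DESeq2 1.42.0 were alternatives, with R 4.3.3 and Python 3.11.15, pandas 2.3.3 and matplotlib 3.10.9. The steps were tested on simulated counts with known changes.

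Named genes were *Stk11*, the 10 highest and 10 lowest log2 fold changes and the 10 smallest p among called genes with non-overlapping groups and an average log2 CPM above 2, and every called member of the 33 gene lists (for lists with fewer than 2 called, the 2 smallest p). Other genes were named after their values were seen or as members of those lists. The members and lists were chosen with earlier results of these data known. Coordinates are from GENCODE vM21 (GRCm38), which placed 13794 of 13986 genes at 1 position. Promoter windows are RefSeq's (GRCm38.p6). They matched 183 of 261 higher and 116 of 160 lower genes, under 80%, so that a comparison of motif shares between called and other genes is void and none is given. Counting intervals cover counting error only. Libraries are not known to come from separate animals, and p-values measure the spread between libraries. Antisense and overlapping genes cannot be told apart where the counting did not use strand.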

Additional observations from a re-analysis of the deposited data

Results flagged for a closer look

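Over 202 groups of named genes (101 genes, sgInert and sgLkb1), Dixon's test at the 95% level picked out 7 single libraries (3.47%), where chance gives about 1 in 20. On the log2 CPM scale sgInert replicate 6 was high for *Postn* (4.78 against 0.541 to 2.19 in the other sgInert libraries), *Lgr4* (4.78 against 3.22 to 3.84) and *Ibsp* (0.29 against -1.63 in each of the others, which had 0 counts). The same library had the highest fibroblast marker sum of its group, 164 CPM, and the part of these cells was not tested. *Lyz2* was low in sgInert replicate 3 (13.5 against 13.9 to 14.2), *Tgfb2* low in sgInert replicate 7 (2.63 against 3.76 to 4.6) and *B2m* high in sgInert replicate 4 (10.4 against 9.15 to 9.6). *Met* was slightly high in sgLkb1 replicate 3 (7.94 against 7.82 to 7.85).

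The effect on *Slc2a13* differed between MT and other titles, by 6.01 on the log2 scale (edgeR adjusted p = 0.0404 for the interaction). With 1 count in the MT sgInert libraries this size depends on the prior count, and the levels were 0 to 0.244 CPM in MT and 2.65 to 8.64 CPM in ZR sgInert libraries, while sgLkb1 libraries had 36.8 to 57.7 CPM.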

How the results depend on the processing

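The 261 higher and 160 lower calls became 83 and 57 without MT titles, 113 and 91 when libraries were summed by animal number with the unnumbered ones as 1 animal, 121 and 99 without the 2 unnumbered sgLkb1 libraries (a setting chosen after seeing the data), 393 and 416 with no fold limit and 124 and 96 at an adjusted p under 0.01. Sex as a covariate gave 524 higher, and limma on log2(TPM + 1), which moved the median of all genes to 0.181, gave 90 lower and 382 higher. DESeq2 called 370 and 213, and *Stk11* was -0.98 (adjusted p = 0.00206) with limma and -1.32 (adjusted p = 0.0502) without MT titles. Summing by animal number left 192 higher and 109 lower among MT titles. Leaving out 1 library gave 182 to 307 higher and 131 to 163 lower over all libraries, 218 to 340 higher and 128 to 218 lower among MT titles, and -1.39 to -1.18 for *Stk11*. The causes were not tested. Replicate numbers did not pair the samples (correlations of same-numbered libraries 0.0893, -0.0047, -0.0982, -0.0762 and -0.109), and a fit with the replicate block gave 364 higher and 161 lower calls and -1.21 for *Stk11*. Of the single named genes under all other settings, 2424 values kept direction and side of the threshold, 64 passed it newly, 306 missed it and 2 turned direction, *Akap5* (-0.033) and *Ccnb1* (0.12), both without MT titles and neither of them called there or over all libraries. Of 495 list medians 466 moved by less than 1 SD of the list's mean level between libraries and 29 by more. Depth limits genes of a few counts, such as *Ibsp*, *Hgf* and *Lgr6*.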

Other observations

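Several imprinted genes, expressed from 1 parental allele and known for roles in growth, were among the called genes. They were picked after their values were seen and get no count against a background. *Peg3*, a zinc-finger protein (3.63 ± 0.66, adjusted p = 0.00165), *Igf2*, a growth factor (3.39 ± 0.77, adjusted p = 0.00951), *Slc38a4*, an amino acid transporter (2.94 ± 0.52, adjusted p = 0.00145), *Nnat*, a small membrane protein (1.28 ± 0.30, adjusted p = 0.0114), and the noncoding RNA *Meg3* (1.06 ± 0.26, adjusted p = 0.0195) were higher by edgeR's test, with *Cdkn1c* as given above. *Plagl1*, a zinc-finger factor, was lower (-1.56 ± 0.25, adjusted p = 0.00056; -1.96 ± 0.25, adjusted p = 0.000224 among MT titles). *Igf2r*, *Gnas*, *Grb10* and *Impact* had 0.18, -0.11, -0.42 and -0.18 and did not pass the test. Among MT titles *Slc38a4*, *Nnat* and *Meg3* were called (3.73, 1.76 and 1.22), whereas *Peg3* and *Igf2* had 2.93 (adjusted p = 0.0649) and 2.94 (adjusted p = 0.0565). *Igf2* had 0 to 1.08 CPM (median 0.487) in sgInert and 6.81, 4.08, 5.16, 0.688 and 11.7 CPM in sgLkb1 libraries, and *Slc38a4* had 0.487 to 31.5 CPM (median 13.7) and 139, 101, 106, 74.6 and 80.5 CPM.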
